A study of Mus musculus with 12 samples.

Results

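The 4 adult globin genes Hba-a1, Hba-a2, Hbb-bs and Hbb-bt and the erythroid gene Alas2 were followed through 12 RNA libraries sorted as mouse mammary carcinoma cells from the lung. These 5 genes were taken by their symbols from a table of 54146 genes, and all 5 passed the filter on low values. The sorted cells were D2A1, a mammary carcinoma line, carrying a doxycycline-inducible H2B-GFP and labelled with CellVue Claret, a membrane dye that dims as cells divide. They had been injected into the tail vein of female mice of 6 to 8 weeks. GFP-positive cells that had kept the dye were sorted as dormant and those that had lost it as growing. Hosts were WT or Tgfbr2 KO, in which the type II receptor for TGF-β was deleted in cells that express Cre from the Lysozyme 2 locus (LysM-Cre), that is, in host myeloid cells and not in the carcinoma cells. The legends of the study name floxed mice without deletion as controls, whereas the labels name the genotype WT. Each state was sampled in each host by 3 libraries, which gives 4 groups, called growing WT, growing KO, dormant WT and dormant KO here. The column names put WT libraries in batch 1 and KO libraries in batch 2, so that host and batch cannot be told apart wherever KO is set against WT. Dormant and growing libraries of 1 host were compared within a single batch.

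Adult haemoglobin is a tetramer of alpha and beta chains, each holding a haem group that binds oxygen. In the erythroid lineage, transcription factors such as GATA1 and KLF1 switch on the globin genes together with Alas2, which makes the first and rate-limiting enzyme of erythroid haem synthesis. Mature red cells of mammals have no nucleus but young ones, the reticulocytes, still hold much globin messenger RNA. Globin transcripts have also been described in cells outside the erythroid lineage, alveolar type 2 cells of the lung among them. In lung preparations red cells are often lysed before sorting.

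Some facts of the whole series bear on these genes. Levels are in TPM, the share of a gene's transcripts among all transcripts of a library after correction for length, scaled to the same total in each library, with 11325 to 15315 genes above 0. Spp1 (osteopontin), the most abundant gene of the mammary carcinoma list, stood between 28980 and 39951 TPM in the 9 libraries of the other groups and between 1236 and 1509 in the 3 dormant KO libraries. In the same 3 libraries the surfactant gene Sftpc, which marks alveolar type 2 cells, stood between 36571 and 39284 TPM, against 41.2 to 423 elsewhere. By these 2 genes the dormant KO libraries stood apart from the rest. The other genes of the carcinoma list did not all go the way of Spp1. Set against dormant WT, 3 of its 8 genes were called higher in dormant KO (Krt7, Krt19 and Epcam), 2 lower (Spp1 and Krt8), and Krt18 differed by 0.092. In growing libraries Krt7 was at 0 to 2.18 TPM, Krt19 at 0 to 14.2 and Epcam at 0 to 1.12, against 153 to 306 for Krt8. Krt7, Epcam and Cdh1 passed the filter on low values only through the dormant KO libraries, and among the other 5 genes 1 was called higher (Krt19) and 2 lower. Of all tested genes 12.9% were called higher and 9.39% lower in this comparison. Every comparison below that uses the dormant KO libraries rests on them, and the comparisons without them are growing KO against growing WT and dormant WT against growing WT. The targeted gene Tgfbr2 was at 0.14 to 11.1 TPM in WT and 1.27 to 11.5 in KO libraries. These values do not check the deletion, since the cells were sorted as carcinoma cells. The part of host myeloid cells in the libraries was not measured.

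The alpha pair lies on chromosome 11 and the beta pair on chromosome 7 of GRCm38 (GENCODE M21, whose gene identifiers and versions match those of the table for all 5 genes). Hba-a1 (ENSMUSG00000069919.7, chr11:32283511-32284465) and Hba-a2 (ENSMUSG00000069917.7, chr11:32296489-32297298) are on the plus strand, 12023 bases apart. Hbb-bs (ENSMUSG00000052305.6, chr7:103826534-103828096) and Hbb-bt (ENSMUSG00000073940.3, chr7:103812524-103813996) are on the minus strand, 12537 bases apart. Alas2 (ENSMUSG00000025270.13, chrX:150547375-150570638) is on the plus strand of the X chromosome and has 11 exons, whereas each globin gene has 3.

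The members of each pair are nearly the same sequence, so how reads were shared between them sets their separate values. The coding sequences of Hba-a1 and Hba-a2 (426 bases each) differed at 1 base, C381T from Hba-a1 to Hba-a2, and those of Hbb-bs and Hbb-bt (441 bases each) differed at 1 base, C417T from Hbb-bs to Hbb-bt, with positions counted from 1 at the A of the start codon. The stretches that hold these bases are shown because they are the only coding positions that tell the copies apart, and the capital marks the base that differs.
Hba-a1, coding bases 351 to 410: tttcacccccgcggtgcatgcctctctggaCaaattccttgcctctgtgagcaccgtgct
Hba-a2, coding bases 351 to 410: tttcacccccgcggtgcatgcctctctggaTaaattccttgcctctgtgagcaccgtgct
Hbb-bs, coding bases 382 to 441: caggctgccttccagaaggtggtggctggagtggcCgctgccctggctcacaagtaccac
Hbb-bt, coding bases 382 to 441: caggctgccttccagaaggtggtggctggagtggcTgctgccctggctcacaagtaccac

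Over whole transcripts, 67.5% of the 50-base windows of Hba-a1 occurred also in Hba-a2, and 86.9% of those of Hba-a2 in Hba-a1. For the beta pair 65.8% of the windows of Hbb-bs occurred in Hbb-bt and 58.3% of those of Hbb-bt in Hbb-bs. RSEM, which made these values, shares such reads by an estimate, so the level of 1 copy is less certain than the sum of its pair. Hbb-bs and Hbb-bt are the gene names of 1 haplotype of the mouse beta locus, and the haplotype of the hosts was not given in the sources used here.

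The promoters of the globin genes are shown because Hba-a1, Hba-a2 and Hbb-bs moved together, as described below. Hbb-bt followed them less closely. The promoter windows are the 250 bases before the RefSeq start (GRCm38.p6), read in the direction of the gene. Capitals mark matches on either strand to the GATA motif (letters GATAA), the CACCC box (letters CCNCNCCC), the CCAAT box and the TATA box (letters TATAA). All 5 genes had an entry. Over 247 aligned bases the window of Hba-a1 was identical to that of Hba-a2, so 1 of them is given.
Hba-a2, chr11:32296242-32296491, plus strand: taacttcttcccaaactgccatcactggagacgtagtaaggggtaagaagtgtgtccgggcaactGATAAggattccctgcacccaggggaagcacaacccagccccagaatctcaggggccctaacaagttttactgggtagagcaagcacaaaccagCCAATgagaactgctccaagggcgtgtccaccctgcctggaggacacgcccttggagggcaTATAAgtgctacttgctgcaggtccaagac
Hbb-bs, chr7:103827929-103828178, minus strand: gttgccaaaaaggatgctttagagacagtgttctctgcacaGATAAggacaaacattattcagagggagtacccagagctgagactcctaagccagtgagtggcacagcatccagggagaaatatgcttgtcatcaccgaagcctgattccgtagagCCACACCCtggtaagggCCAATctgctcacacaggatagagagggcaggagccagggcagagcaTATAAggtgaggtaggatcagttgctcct
Hbb-bt, chr7:103813924-103814173, minus strand: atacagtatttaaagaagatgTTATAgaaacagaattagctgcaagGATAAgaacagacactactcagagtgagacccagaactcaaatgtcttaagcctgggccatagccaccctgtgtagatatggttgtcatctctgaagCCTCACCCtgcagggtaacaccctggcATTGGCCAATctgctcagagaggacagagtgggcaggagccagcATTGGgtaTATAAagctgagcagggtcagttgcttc

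The window of Hba-a2 held the GATA motif from base -185 to -181 before the start, the CCAAT box from -91 to -87 and the TATA box from -30 to -26. The windows of Hbb-bs and Hbb-bt were identical at 51.0% of 249 aligned bases. Both held the GATA motif (from -209 to -205 in Hbb-bs, from -204 to -200 in Hbb-bt), 1 CACCC box, and at least 1 CCAAT box and 1 TATA box. The GATA motif occurred in all 5 genes and in 22.6% of 32851 promoter windows of the same length. The TATA box occurred in all 5 genes and in 22.8% of windows, the CCAAT box in the 4 globin genes and in 33.8%, and the CACCC box in Hbb-bs, Hbb-bt and Alas2 and in 45.9%. In Alas2 the TATA box matches of both strands overlapped each other, as did 3 of its 4 CACCC boxes. Such matches describe letters in the window and say nothing of what bound there. GENCODE M21 places the gene start of all 5 within these windows.

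Among the alpha chain genes, Hba-a1 stood at 2516, 2310 and 2163 TPM in growing WT (replicates 1 to 3), 2492, 2512 and 2889 in growing KO, 3378, 4894 and 4370 in dormant WT and 19783, 18576 and 19243 in dormant KO. The 3 dormant KO libraries lay far above the other 9, and the lowest dormant WT library lay above all 6 growing libraries. Hba-a2 stood at 2763, 2657 and 2658 TPM in growing WT, 3180, 2823 and 3241 in growing KO, 3277, 5042 and 3926 in dormant WT and 21391, 19716 and 21324 in dormant KO. Its dormant KO libraries again lay above all others, and its growing KO libraries all lay above its growing WT libraries by a small margin. In every dormant KO library both alpha genes were among the 5 most abundant of all genes, whereas elsewhere they ranked from 22 to 62.

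The main beta chain gene by level, Hbb-bs, stood at 1452, 1343 and 1253 TPM in growing WT, 1479, 1408 and 1534 in growing KO, 2210, 3085 and 2505 in dormant WT and 13973, 11521 and 13111 in dormant KO. The order of the groups was that of the alpha genes, with dormant KO highest and dormant WT next, and the growing groups overlapped. Hbb-bt, the other gene of the beta pair, stood at 117, 121 and 113 TPM in growing WT, 98.9, 132 and 125 in growing KO, 106, 9.4 and 192 in dormant WT and 1101, 995 and 1070 in dormant KO. Its dormant KO libraries were the highest, and the other 3 groups overlapped, with dormant WT replicate 2 the lowest of all libraries.

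Alas2 was low throughout. It stood at 2.69, 9.44 and 9.42 TPM in growing WT, 1.76, 6.5 and 1.85 in growing KO, 17.7, 0.03 and 0 in dormant WT and 14.6, 23.6 and 22.9 in dormant KO. The dormant KO libraries lay above all growing libraries but overlapped dormant WT, where replicate 1 was high and the other two were at or near 0. Values of 0 in single dormant WT libraries were also listed for a haem synthesis gene that most cells use (Urod in replicate 3). The cause of such zeros was not tested.

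**Figure D1:**
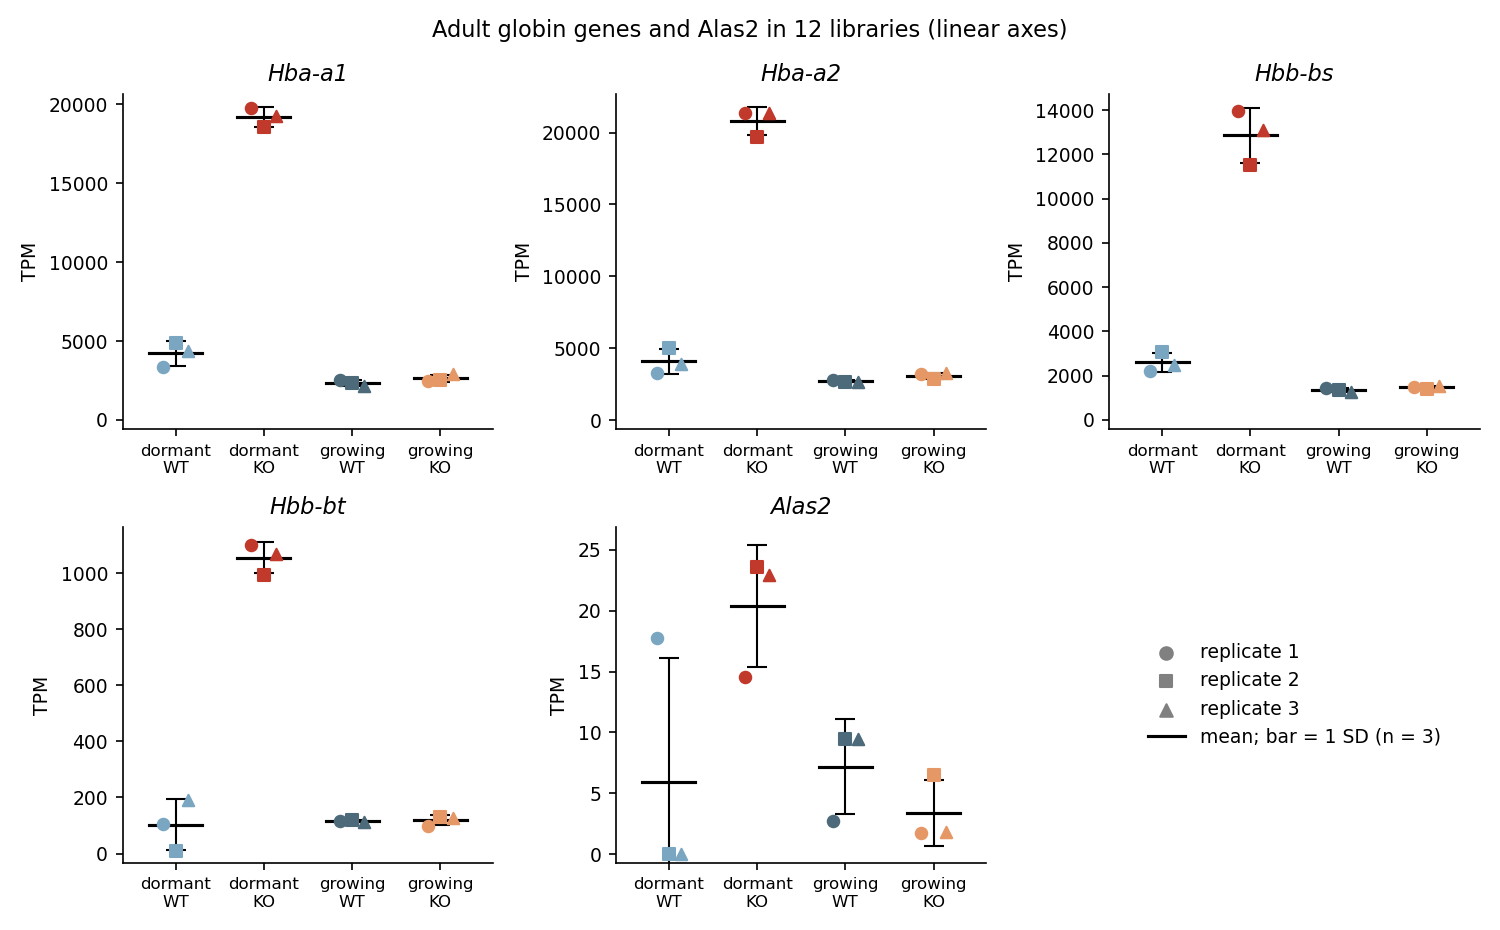
Abundance in TPM (vertical, linear axes) of each of the 5 genes in the 4 groups, with 1 point per library and bars for the mean and SD of 3 libraries. The dormant KO libraries lie apart from the other 9 for the 4 globin genes (for example 11521 to 13973 TPM of Hbb-bs), whereas for Alas2 dormant WT replicate 1 (17.7 TPM) lies among them.

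Added together, the 4 globin genes took 0.649% ± 0.0334 (SD, n = 3) of all TPM in growing WT, 0.730% ± 0.0460 in growing KO, 1.10% ± 0.203 in dormant WT and 5.39% ± 0.281 in dormant KO. The summed level was 53935 ± 2810 TPM in dormant KO and 10998 ± 2030 in dormant WT, a ratio of 4.90 between the means. Between growing KO (7304 ± 460) and growing WT (6489 ± 334) the ratio was 1.13. Dormant WT exceeded growing WT by 1.69 times and dormant KO exceeded growing KO by 7.38 times. In bulk libraries such as these, more cells with globin RNA and more globin RNA per cell cannot be told apart.

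Dormant KO was set against dormant WT to ask how the host's myeloid Tgfbr2 bears on dormant cells, and all 4 globin genes were higher in KO hosts. Differences are given on the log2(TPM + 1) scale with the standard error, and a gene was called where limma's adjusted p (Benjamini-Hochberg over 13002 genes) did not exceed 0.05 and the difference reached 1. The difference was 2.204 ± 0.115 for Hba-a1 (adjusted p = 3.05e-07), 2.37 ± 0.12 for Hba-a2 (adjusted p = 2.66e-07) and 2.32 ± 0.11 for Hbb-bs (adjusted p = 1.99e-07). These 3 genes rose by near-equal amounts, from 4.61-fold for Hba-a1 to 5.17-fold for Hba-a2. Hbb-bt rose by 4.14 ± 0.79 (adjusted p = 0.00246), with a 95% interval of 2.41 to 5.86, and its difference depended on dormant WT replicate 2. Without that library it was 2.87, and it was still called. Alas2 was 2.96 ± 1.03 higher but was not called (adjusted p = 0.0577). Without dormant WT replicate 1 its difference was 4.37 and it was called (adjusted p = 0.000796). Because Alas2 is low, its difference also moved with the number added before the log, to 5.03 with 0.1 in place of 1 (adjusted p = 0.0504) and 1.59 with 5 (adjusted p = 0.0637).

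Thus 4 of the 5 genes were called higher in dormant KO libraries, where 12.9% of all tested genes were called higher, 9.39% lower and 22.3% in either direction. Their median difference was 2.37, against 0.17 over all tested genes. The libraries did not overlap for the 4 globin genes, as was the case for 31.5% of all tested genes. By p the 3 main globin genes ranked from 18 to 23 of all tested genes, and by the size of the difference from 2053 to 2392. Hbb-bt lost its call when only the dormant groups entered the fit (adjusted p = 0.062).

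In growing cells the 3 main globin genes were near-equal in KO and WT hosts, whereas the values for Hbb-bt and Alas2 were too imprecise to say. The difference was 0.17 ± 0.12 for Hba-a1 (95% interval -0.078 to 0.43), 0.19 ± 0.12 for Hba-a2 (-0.072 to 0.46) and 0.13 ± 0.11 for Hbb-bs (-0.12 to 0.38), so changes of 1 or more were outside the intervals of these 3 genes. Hbb-bt differed by 0.011 ± 0.79 and Alas2 by -0.92 ± 1.03, with intervals of -1.71 to 1.74 and -3.18 to 1.33. By limma 0 of the 5 genes were called (adjusted p from 0.954 to 1) and 0 had an unadjusted p under 0.05, as had 7.53% of all tested genes, where 0.977% of all tested genes were called, 0.715% higher and 0.261% lower. Only the libraries of Hba-a2 did not overlap, as was the case for 23.9% of all tested genes.

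Within WT hosts, and within 1 library batch, the main globin genes were modestly higher in dormant than in growing cells. The difference was 0.84 ± 0.12 for Hba-a1 (adjusted p = 0.00122), 0.58 ± 0.12 for Hba-a2 (adjusted p = 0.0138) and 0.93 ± 0.11 for Hbb-bs (adjusted p = 0.000573). All 3 passed limma's adjusted p but stayed under the minimum difference of 1, so 0 of the 5 genes were called, where 1.85% of tested genes were called higher, 5.67% lower and 7.51% in either direction. Hba-a2 no longer passed the adjusted p when only the WT groups entered the fit (adjusted p = 0.12) or without growing WT replicate 2 (0.0537) or 3 (0.0531). At an unadjusted p under 0.05 there were 3 of the 5, as there were 23.9% of all tested genes, and the libraries of the same 3 genes did not overlap, as was the case for 26.6% of tested genes. Without dormant WT replicate 1, Hbb-bs reached 1.04 (adjusted p = 0.000174) and Alas2 -2.86 (adjusted p = 0.0163), and both were called. Hbb-bt differed by -0.97 ± 0.79 (adjusted p = 0.491), a direction that rested on dormant WT replicate 2, since without it the difference was 0.29. Alas2 differed by -1.46 ± 1.03 (adjusted p = 0.422), or by -3.37 with 0.1 added and -0.50 with 5. The median difference of all tested genes in this comparison was -0.35.

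Within KO hosts, also within 1 library batch, the rise from growing to dormant cells was larger. It was 2.87 ± 0.12 for Hba-a1 (adjusted p = 4.68e-08), 2.76 ± 0.12 for Hba-a2 (adjusted p = 9.49e-08), 3.12 ± 0.11 for Hbb-bs (adjusted p = 2.58e-08) and 3.15 ± 0.79 for Hbb-bt (adjusted p = 0.0148). Hbb-bs thus stood at 8.70 times, and Hba-a2 at 6.76 times, its level in growing KO libraries. Alas2 was 2.43 ± 1.03 higher and was not called (adjusted p = 0.132), but it was called when only the KO groups entered the fit (adjusted p = 0.0184). These were 4 of 5 genes called higher, where 8.31% of tested genes were called higher, 9.48% lower and 17.8% in either direction. Over the 5 genes the median difference was 2.87, against -0.32 over all tested genes. All 5 genes had libraries that did not overlap, as had 44.7% of tested genes. Without growing KO replicate 1, Hbb-bt was no longer called (3.03, adjusted p = 0.0531).

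The dormant against growing difference was itself larger in KO than in WT hosts, as tested by the interaction in the same limma fit. It was larger by 2.03 ± 0.16 for Hba-a1 (adjusted p = 3.09e-05), 2.18 ± 0.17 for Hba-a2 (adjusted p = 3.06e-05), 2.19 ± 0.16 for Hbb-bs (adjusted p = 2.27e-05) and 4.13 ± 1.11 for Hbb-bt (adjusted p = 0.0364). For Alas2 it was 3.89 ± 1.45 (adjusted p = 0.125), or 6.16 with 0.1 added before the log and 2.12 with 5, and it was called in neither. The call was made for 4 of the 5 genes in the direction of KO, where 6.18% of tested genes were called in that direction, 3.91% in the other and 10.1% in either. The call of Hbb-bt was lost without any 1 of the 9 libraries of the dormant KO, growing WT and growing KO groups (4.003 to 4.207, adjusted p from 0.0663 to 0.0837). Without dormant WT replicate 1, Alas2 was called (5.29, adjusted p = 0.00379), and without dormant WT replicate 2 the value for Hbb-bt was 2.86. The 5 comparisons share groups of libraries and are not independent of each other.

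**Figure D2:**
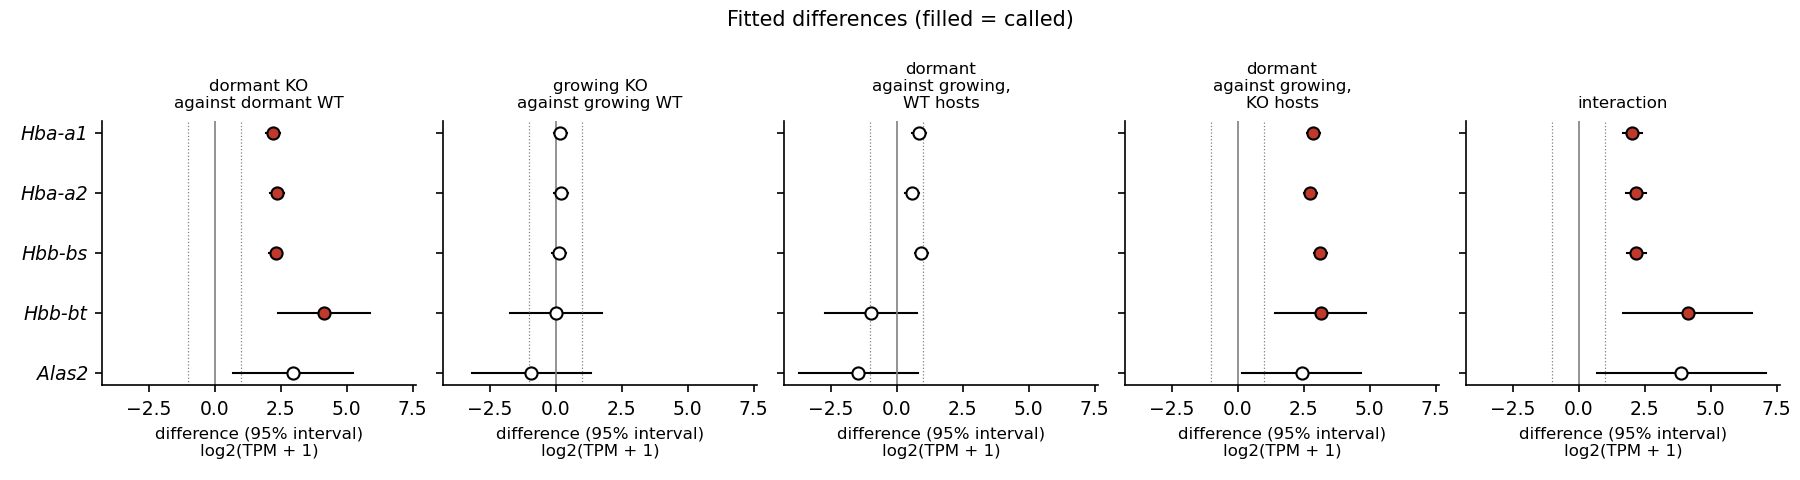
Difference on the log2(TPM + 1) scale (horizontal) of each gene in the 5 comparisons, with points for the fitted difference, bars for its 95% interval, filled points for called genes and dotted lines at a difference of 1 in either direction. Hba-a1, Hba-a2 and Hbb-bs lie between 2.03 and 3.12 wherever dormant KO libraries enter and between 0.13 and 0.93 elsewhere, and the intervals of Hbb-bt and Alas2 are several times wider.

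The balance of the chains was also read from the files. The ratio of alpha to beta TPM was 3.43 ± 0.0879 (SD, n = 3) in growing WT, 3.58 ± 0.116 in growing KO, 3.05 ± 0.170 in dormant WT and 2.88 ± 0.165 in dormant KO. The 6 dormant libraries lay between 2.73 and 3.21 and the 6 growing libraries between 3.36 and 3.69. This split by state was noticed after the values were seen and is given as a description with no test. Hba-a2 made up 47.3% to 52.6% of alpha TPM in dormant and 52.3% to 56.1% in growing libraries. Hbb-bt made up 7.31% to 7.95% of beta TPM in dormant KO and 6.27% to 8.54% in the growing groups. In dormant WT that share was 4.59%, 0.304% and 7.13%, so the estimate for Hbb-bt was low in replicate 2 while that for Hbb-bs (3085 TPM) was the highest of its group. Per 10000 TPM of globin, Alas2 stood at 3.93, 14.7 and 15.2 TPM in growing WT, 2.43, 9.46 and 2.38 in growing KO, 19.8, 0.0230 and 0 in dormant WT and 2.59, 4.64 and 4.18 in dormant KO. Per globin TPM, Alas2 was therefore not highest in dormant KO libraries, and the groups overlapped.

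**Figure D3:**
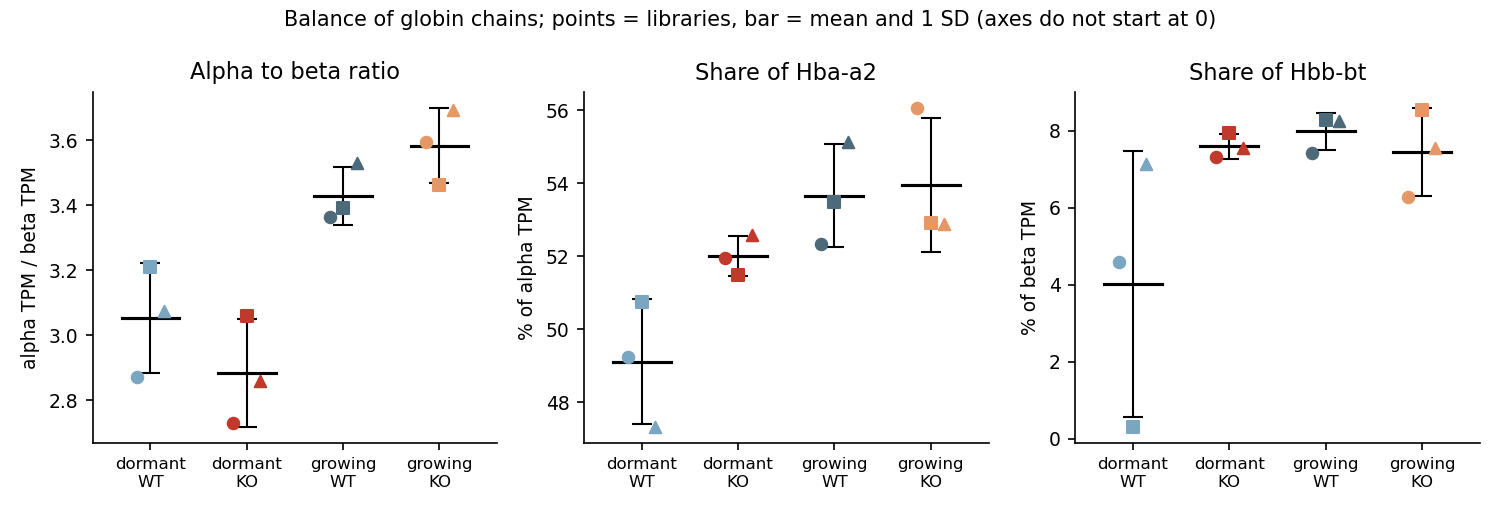
Ratio of alpha to beta TPM (left), share of Hba-a2 in alpha TPM (middle, percent) and share of Hbb-bt in beta TPM (right, percent) in the 4 groups, with 1 point per library and bars for the mean and SD. Dormant libraries lie at 2.73 to 3.21 and growing libraries at 3.36 to 3.69 in the ratio, and dormant WT replicate 2 lies near 0 (0.304%) in the share of Hbb-bt.

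Across the 12 libraries, log2 levels of Hba-a1, Hba-a2 and Hbb-bs varied together (r = 0.993 to 0.998 over 12 libraries, which share the groups). After the group means had been taken off, r between these 3 genes was 0.869 to 0.906. Hbb-bt followed them less closely (r = 0.707 to 0.735), and with the group means off its r with each of them was negative (-0.48 to -0.76). Alas2 had an r of 0.462 to 0.495 with the 3 main globin genes over all libraries and of -0.75 to -0.88 with the group means off. These are descriptions, and dormant WT replicate 2 was the lowest library in Hbb-bt and the highest of its group in the other globin genes.

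Other genes of oxygen carriers were few. Of 10 further globin genes, the embryonic genes Hba-x, Hbb-bh0, Hbb-bh1, Hbb-bh2 and Hbb-y were listed at 0 in all 12 libraries. Only Cygb (cytoglobin) and Ngb (neuroglobin) passed the filter, and both were called higher in the dormant KO group than in dormant WT (12.9% of all tested genes were), although Ngb reached the filter only through the dormant KO libraries, so it was tested only because of its level there. Cygb was at 4.69 to 9.72 TPM there, at 0.2 to 1.74 in growing libraries and listed at 0 in each dormant WT library (adjusted p = 0.000523). Ngb was at 3.43 to 45.5 TPM in the dormant KO group, against 0 throughout dormant WT (adjusted p = 0.00119).

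The haem synthesis genes had calls in both directions. Of 13 genes tested, Alas2 among them, 3 were called higher and 2 lower in dormant KO when set against dormant WT, where 12.9% of all tested genes were called higher and 9.39% lower. Their median difference was 0.39, against 0.17 over all tested genes. Alad, which makes porphobilinogen, reached 379, 452 and 341 TPM in dormant KO from 61.5, 60.03 and 120 in dormant WT (difference 2.33, adjusted p = 0.000101). It stood at 197 to 285 TPM in the growing libraries and was called lower in dormant than in growing WT (-1.62, adjusted p = 0.0047). Ppox, a late enzyme of the pathway, was at 2.31 to 5.71 TPM in dormant KO and 0 to 0.1 in dormant WT (2.22, adjusted p = 0.0107), and so was called higher, but its growing libraries stood above both at 6.87 to 23.2 TPM. Dormant WT was called lower than growing WT for Ppox (-3.62, adjusted p = 0.00221). Also called higher between the dormant groups was the mitochondrial glycine carrier Slc25a38, listed at 0 in dormant WT and at 1.71 to 17.3 TPM in dormant KO (adjusted p = 0.0197). Fech, which puts iron into the ring, was lower (-1.52, adjusted p = 0.0364), as was Uros (-3.15, adjusted p = 0.0362). Between dormant and growing libraries of KO hosts, limma's adjusted p of these 13 genes lay between 0.0508 (Fech) and 0.942 (Cpox). The summed level of the list was 640 to 776 TPM in dormant KO and 737 to 776 in growing KO.

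Several defining genes of the erythroid lineage were at or near 0 in all libraries, and others were not. Gata1 and Gfi1b were listed at 0 in all 12 libraries. Klf1, the activator of the adult beta gene, was listed at 0 in all dormant KO libraries and reached 13.3 TPM in dormant WT replicate 3. Of 11 transcription factor genes only 3 passed the filter, and 1, Lmo2, was called higher in dormant KO, where 12.9% of all tested genes were called higher. It was at 27.4 to 31.0 TPM against 0 to 0.28 in dormant WT (4.81, adjusted p = 0.000107). Lmo2 passed the filter only through dormant KO libraries, where it is high, and is also known for its part in blood vessels.

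Of 17 genes of the red cell membrane and skeleton, Ermap, Kel and Rhag were listed at 0 throughout. The anion exchanger Slc4a1 was at most 0.14 TPM and the spectrin gene Sptb at most 0.04 TPM in any library. Among the 7 genes that passed the filter 3 were called higher in dormant KO and 0 lower, where 12.9% and 9.39% of all tested genes were, and 1 of the 3, Gypc, passed the filter only through the dormant KO libraries. Aqp1, a water channel of red cells and also of lung endothelium, was at 41.0 to 67.6 TPM against 0 to 2.53 in dormant WT (4.88, adjusted p = 0.000997). Gypc was at 18.1 to 31.1 TPM there, with every dormant WT library at 0 (adjusted p = 5.05e-05). Rhd, which encodes a Rhesus blood group protein, was at 77.2 TPM in dormant WT replicate 3 and at 0 in replicates 1 and 2. It was at 8.37 to 14.2 in growing WT, 0.03 to 9.57 in growing KO and 0 in all dormant KO libraries. Its difference between the dormant groups rested on 1 library and was not called (-2.10, adjusted p = 0.339). Epb41, which ties spectrin to the membrane and is made in many tissues, was at 4.63 to 5.64 against 0.51 to 1.84 TPM (1.61, adjusted p = 0.0169).

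Among 15 enzyme and maturation genes in the table, Car1, Hemgn, Trim58 and Tspo2 were listed at 0 in all libraries, and 9 passed the filter. Of these 9, 1 was called higher and 1 lower in dormant KO than in dormant WT, where 12.9% and 9.39% of all tested genes were. Car2, a carbonic anhydrase that passed the filter only through dormant KO libraries, was called higher there, at 13.1 to 25.8 TPM and listed at 0 in dormant WT (adjusted p = 0.000337). Bpgm, which makes the red cell regulator of oxygen affinity, was called lower, at 4.52 to 16.5 against 114 to 221 TPM (-3.84, adjusted p = 0.000113). Prdx2, a peroxidase abundant in red cells, stood at 465 to 543 TPM in dormant KO and 1148 to 1265 in growing KO (-1.23, adjusted p = 4.52e-05). In these comparisons neither gene moved in the direction of the globin genes. Over all growing libraries Bpgm stood at 57.2 to 133 TPM and Prdx2 at 1148 to 1390. In WT hosts Bpgm was 0.50 higher in dormant than in growing libraries and was not called. Ahsp, which encodes the chaperone of alpha chains, was not analysed here.

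Of 9 genes in the table for the clearance of haemoglobin and haem, 7 passed the filter, of which 2 were called higher in dormant KO libraries and 0 lower, against 12.9% and 9.39% of all tested genes. Hp, haptoglobin, was at 8.15 to 19.4 TPM against 0 to 8.38 (2.87, adjusted p = 0.0245), and Hmox1, the inducible haem oxygenase, at 28.0 to 68.1 against 0 to 30.3 (3.51, adjusted p = 0.0321). For both genes the groups overlapped. The biliverdin reductase Blvrb was at 53.3 to 97.4 TPM in dormant KO and 53.3 to 109 in dormant WT and was not called (-0.15, adjusted p = 0.802).

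Markers of other cells of blood and lung were counted in the same comparison. In dormant KO against dormant WT, the platelet list had 8 of 9 tested genes higher, the neutrophil list 5 of 5, the alveolar type 2 list 9 of 12, the endothelial list 8 of 12, the leukocyte list 3 of 8 and the macrophage list 1 of 10, with none lower, where 12.9% of all tested genes were called higher. Of these genes 6 of the platelet list, 3 of the neutrophil list, 4 each of the alveolar type 2 and endothelial lists and 3 of the macrophage list passed the filter only through the dormant KO libraries, so they were tested only because of their level there. Among the genes that passed it in the other 9 libraries, 3 of 3 platelet, 2 of 2 neutrophil, 5 of 8 alveolar type 2, 5 of 8 endothelial, 3 of 8 leukocyte and 1 of 7 macrophage genes were called higher. The median difference of the macrophage list was -0.030. The summed level of 12 alveolar type 2 genes was 40295 to 42601 TPM in dormant KO and 78.3 to 149 in dormant WT, a ratio of 340 between means, or 144 without Sftpc. It was 466 to 477 in growing KO and 58.6 to 103 in growing WT. That of 12 endothelial genes was 983 to 1054 TPM in dormant KO and 45.9 to 165 in dormant WT (9.74 times), and that of 9 neutrophil genes 4062 to 4370 and 326 to 915 (6.90 times), with S100a8 and S100a9 as its most abundant genes and Camp at 0 in all libraries.

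The platelet list summed to 964 to 1246 TPM in dormant KO and 0.27 to 185 in dormant WT, a ratio of 14.2 between means that was 50.8 without dormant WT replicate 1 and 77.7 without Pf4. Pf4, a platelet chemokine, was at 571 to 735 TPM in dormant KO and 0 to 169 in dormant WT, and Gng11 at 331 to 416 against 0.08 to 15.7, whereas Gp1ba and Gp5 were at 0 in all libraries. The ratio of the globin sums (4.90) was below that of each of these lists apart from the macrophage list (1.83 times, or 0.883 without its most abundant gene, Lyz2) and the leukocyte list (2.22 times). The mammary carcinoma list, led by Spp1, stood at 2136 to 2717 TPM in dormant KO and 33440 to 41246 in dormant WT, a ratio of 0.0663 that is nearly all Spp1. Krt19 was at 252 to 418 TPM in dormant KO against 0 to 0.59 in dormant WT, Krt7 at 29.6 to 61.5 against 0, and the carcinoma list's genes Epcam and Cdh1 were at most 5.34 and 1.88 TPM in any library. The part of these cell types in the level of the globin genes was not tested.

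The same sums were read in the comparisons without dormant KO libraries, with no test of how alike they were. Between dormant WT and growing WT the summed macrophage list was higher by 19.1 times, the neutrophil list by 9.97 times, the endothelial list by 5.66 times, the platelet list by 4.60 times, the leukocyte list by 1.82 times, the globin sum by 1.69 times and the alveolar type 2 sum by 1.48 times. Here 7 of 10 macrophage, 2 of 5 neutrophil and 2 of 8 leukocyte genes were called higher, where 1.85% of all tested genes were. None of the tested endothelial, platelet and alveolar type 2 genes was called. The platelet ratio rested on dormant WT replicate 1 (185 TPM, against 0.27 and 42.1 in the other two libraries and 8.20 to 21.6 in growing WT), and was 1.29 without it. Between growing KO and growing WT the alveolar type 2 sum differed by 5.74 times, the endothelial sum by 3.18, the macrophage sum by 2.45, the platelet sum by 2.23, the neutrophil sum by 1.67, the globin sum by 1.13 and the leukocyte sum by 1.04. Most of the leukocyte sum in growing libraries came from 1 gene, Arhgdib, at 416 to 497 TPM in growing WT, 401 to 470 in growing KO and 411 to 586 in dormant WT. The other 7 leukocyte genes summed to 7.32 to 24.7 TPM in growing WT, 54.2 to 67.9 in growing KO and 274 to 525 in dormant WT, so that without Arhgdib the ratio was 25.8 between dormant and growing WT and 4.07 between growing KO and growing WT. Of these 7, Cd52, a surface protein of lymphocytes, was called higher in growing KO than in growing WT (2.58, adjusted p = 0.002). In that comparison 3 of 10 macrophage genes (C1qb, C1qc and Lyz2) and 2 of 12 alveolar type 2 genes (Sftpc and Sftpa1) were also called higher, where 0.715% of all tested genes were, and none of the tested platelet, neutrophil and endothelial genes was called. Without Pf4, the most abundant platelet gene, the platelet ratio was 0.448 between dormant and growing WT and 0.743 between growing KO and growing WT. In growing libraries the globin genes summed to 6187 to 7789 TPM, the alveolar type 2 list to 58.6 to 477 and the platelet list to 8.20 to 50.9.

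**Figure D4:**
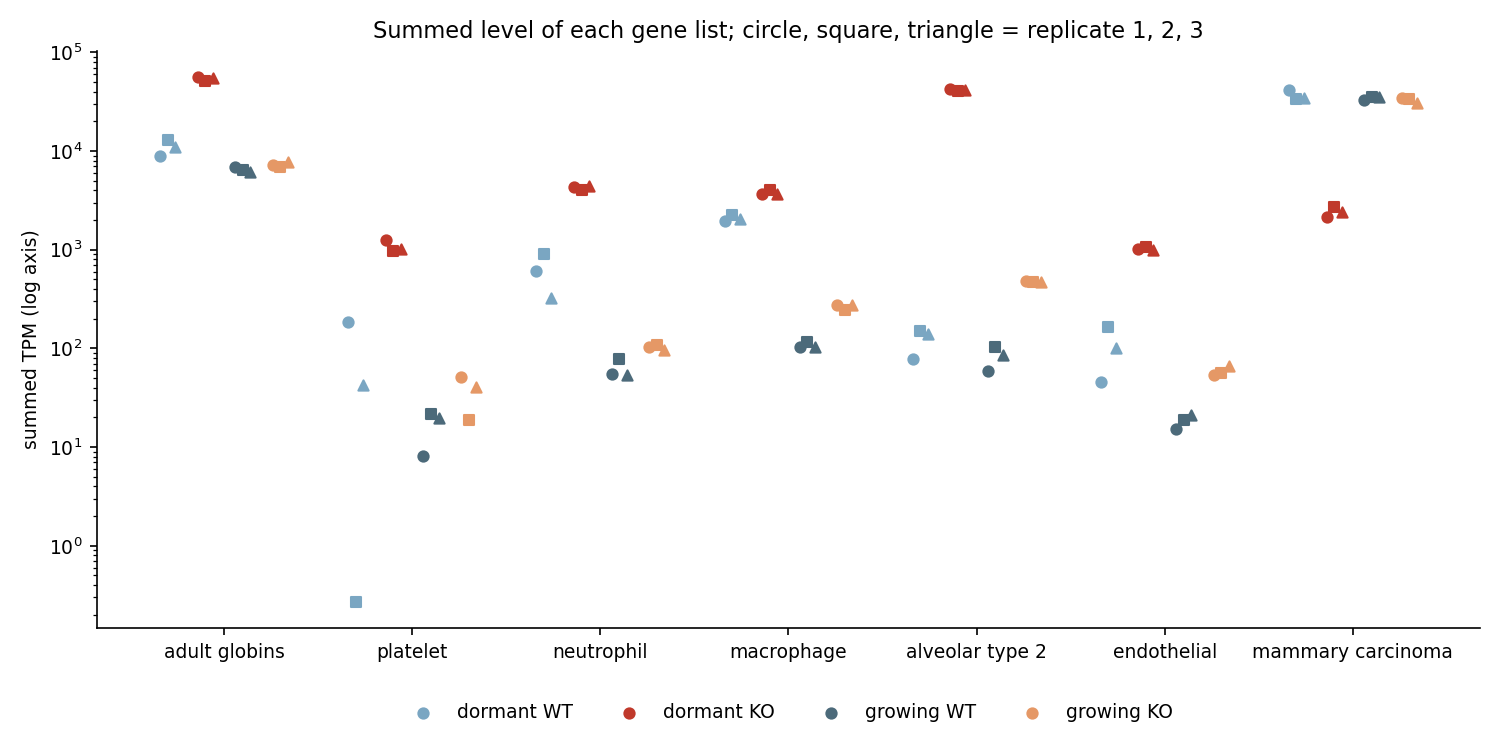
Summed TPM (vertical, log axis) of the adult globin genes and of 6 marker lists in each library, coloured by group, with 1 point per library. Globin levels lie between 6187 and 13030 TPM in all 9 libraries outside the dormant KO group, where the alveolar type 2 list lies between 58.6 and 477 TPM.

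The genes whose levels were most like the globin sum were sought among all other tested genes, by Pearson's r of log2(TPM + 1) over the 12 libraries. The first 5 were Igfbp6 (r = 0.983), Ighv5-12 (0.980), RP23-306D20.13 (0.978), Ptprb (0.977) and Cst3 (0.977). Of these, Ighv5-12, RP23-306D20.13 and Ptprb passed the filter only through the dormant KO libraries and were at or near 0 elsewhere (at most 0.41, 0.26 and 1.85 TPM), so they were among the genes searched only because of their level there. Igfbp6, which binds insulin-like growth factors, stood at 156 to 200 TPM in growing WT, 177 to 195 in growing KO, 245 to 311 in dormant WT and 1694 to 2160 in dormant KO. Cst3, the protease inhibitor cystatin C, stood at 1296 to 1511, 1508 to 1774, 1338 to 1992 and 4582 to 4993 TPM in the same order. Like the globin genes, both were highest in every dormant KO library. With the group means taken off, the first 5 were Anapc11 (r = 0.965), Reep3 (0.950), Dync2h1 (0.943), Rpl17 (0.941) and Sfmbt2 (0.940), none of them among the first 5 of the other measure. All 5 of these genes were highest of their group in dormant WT replicate 2, as was the globin sum, for example Sfmbt2 at 58.9 TPM against 0 and 10.4, and without that library r was 0.860 (Sfmbt2) to 0.948 (Rpl17). Without dormant WT replicate 1 it was 0.840 (Sfmbt2) to 0.910 (Anapc11). These values describe 12 libraries in 4 groups and were chosen as the highest of all tested genes.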

How the data were processed

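RNA was measured in 12 libraries of sorted cells, 3 in each of 4 groups. The methods describe the input as small aliquots of cells counted by the sorter, whose effect on low values was not tested. Per the submitters' processing notes the tools were bcl2fastq 2.20, cutadapt 1.18, STAR 2.5.2b and RSEM 1.3.3 on mm10, and the methods name other versions of some. The methods describe red cell lysis in the preparation of lung cells and a Smart-seq protocol, but a TruSeq mRNA kit is named in the labels. The deposited values are TPM estimated by the authors with RSEM. TPM keeps no depth, so the depth is unknown and precision is the spread between libraries. The study gives 3 mice per group, but the labels do not tie libraries to mice, so p-values measure the spread between these libraries. A further 30 columns matched none of the labelled samples and stayed unused.

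Levels were analysed as log2(TPM + 1), a scale on which fold changes of low genes are understated. The 13002 genes that reached 1 TPM in 3 or more libraries were fitted with limma 3.58.1 (eBayes with trend, R 4.3.3), with 1 mean per group over all 12 libraries and 8 residual degrees of freedom, two-sided, in 5 comparisons. A gene was called at a Benjamini-Hochberg adjusted p of at most 0.05 and a difference of at least 1. The scripts were tested on simulated data. Named were the 5 genes, the 4 most abundant and up to 4 called genes of a list, genes at 0, and the 5 most alike by each of 2 measures, and other list genes were named after their values were seen. The genes and the 14 lists (159 entries) were chosen with earlier results of these data known. Of the lists, Ahsp, Flvcr1, Flvcr2 and Retnlg were not analysed here. Some other list genes are not reported here by name. The alternatives were pseudocounts of 0.1 and 5, no filter, a filter of 5 TPM, scaling by median ratios (5729 genes), quantile normalization, array weights, only the groups compared, a replicate block and leaving out each library. Ratios of summed lists without single libraries or without the most abundant gene of a list, and likeness to the globin sum without single libraries, were added after seeing the data.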

Additional observations from a re-analysis of the deposited data

Results flagged for a closer look

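The dormant against growing difference differed between hosts by a test of the difference itself (the interaction of limma's fit) for 4 of the 5 genes. It was larger in KO than in WT hosts by 2.03 for Hba-a1, 2.18 for Hba-a2, 2.19 for Hbb-bs and 4.13 for Hbb-bt on the log2(TPM + 1) scale. Library batch and host are the same split. A batch shift that is equal in both states cancels in this test, but one that differs by state cannot be told apart from host.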

How the results depend on the processing

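Of 400 values for single genes under the alternatives, 371 kept their direction and their side of the threshold. Hba-a1, Hba-a2 and Hbb-bs kept their calls in every alternative for dormant KO against dormant WT, dormant against growing in KO hosts and the interaction. The direction of Hbb-bt in growing KO against growing WT turned under quantile normalization (-0.078) and when single libraries were left out (-0.070 to 0.13), and in dormant against growing WT without dormant WT replicate 2 (0.29, with a range of -1.82 to 0.29). In dormant against growing WT, 1 gene was called under median-ratio scaling and under quantile normalization, Hbb-bs in both (1.01 and 1.09), and 0 to 2 when single libraries were left out. Median-ratio scaling moved the summed globin level to 66832 TPM in dormant KO, 5297 in growing WT and 5971 in growing KO, and the median difference of all genes between the dormant groups from 0.17 to 0.50. Quantile normalization moved that median to -0.14. Alas2 was called between the dormant groups under median-ratio scaling (3.36) and quantile normalization (2.69). Within KO hosts Alas2 was also called under quantile normalization (3.04) and array weights (2.38). In dormant against growing WT, Hba-a2 missed the adjusted p under quantile normalization (0.0833) and with no filter (0.0534). The cause of these shifts was not tested.

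With no filter, the interaction of Hbb-bt was not called (adjusted p = 0.105), nor was its difference within KO hosts (adjusted p = 0.05, above the threshold before rounding). The replicate numbers did not pair the libraries (r of deviations from -0.0123 to 0.0206, with 4 of 6 dormant libraries closest to the growing library of their number). The replicate block gave the same 4 genes called between the dormant groups and changed no call, with 2722 calls among all genes against 2898.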
